A study of Mus musculus with 32 samples.

Results

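The genes that flank *Lag3* on mouse chromosome 6 were examined, to see whether their RNA levels differed where *Lag3* was deleted or where LAG-3 was high. LAG-3 is an inhibitory immune checkpoint receptor. The 10 flanking genes are *Cd4*, *Ptms*, *Mlf2*, *Cops7a*, *Gpr162*, *P3h3*, *Gnb3*, *Usp5*, *Tpi1* and *Spsb2*, chosen by their position and name, out of 74021 genes in the count tables. Earlier results of these data were known when they were chosen. All 10 were found in each of the 3 tables of estimated read counts. In each table the same 8 had enough counts to be tested, and *Cd4* and *Gnb3* did not.

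The tables hold 32 RNA-seq libraries. The first experiment compared CD11b+/CD45int microglia of lumbar spinal cord from WT mice (4 libraries) with microglia of P140 SOD1G93A mice, sorted by surface LAG-3 into a LAG-3-low and a LAG-3-high fraction (5 libraries each). The labels of the WT libraries give no age. The second compared microglia of SOD1G93A mice with intact LAG-3 (SOD1G93A/LAG-3+/+) and without it (SOD1G93A/LAG-3-/-) at P120 and at P140 (3 libraries per group), and the third compared whole lumbar spinal cord of these genotypes at P140 (3 libraries each). All knockout comparisons are thus between mice that carry the SOD1G93A transgene, which expresses a mutant form of human superoxide dismutase, the B6.Cg-Tg(SOD1*G93A)1Gur/J strain. The deleted allele came from the B6.129S6(Cg)-Lag3tm1Doi/J strain and is constitutive. The strain names give a 129S6 origin for the allele, so chromosome 6 sequence around it may differ from the C57BL/6 background of the littermates. An effect of the deletion itself and of such a linked segment on a flanking gene cannot be told apart in this design.

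*Lag3* and *Cd4* are related genes that lie side by side and encode receptors with immunoglobulin domains, both of which bind major histocompatibility complex class II. *Cd4* marks helper T cells. The other flanking genes are not immune receptors. *Tpi1* encodes triosephosphate isomerase, an enzyme of glycolysis. *Ptms* encodes parathymosin, a small acidic nuclear protein, and *Mlf2* encodes myeloid leukemia factor 2. *Cops7a* encodes a subunit of the COP9 signalosome, which removes the ubiquitin-like protein NEDD8 from cullins. *Usp5* encodes a deubiquitinase that takes apart free ubiquitin chains, and *Spsb2* encodes a substrate adaptor of a ubiquitin ligase. *P3h3* encodes prolyl 3-hydroxylase 3, which belongs to the enzymes that modify collagen. *Gpr162* encodes an orphan receptor of the G protein-coupled type, and *Gnb3* a beta subunit of G proteins known from cone photoreceptors.

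On GRCm39, *Lag3* (ENSMUSG00000030124, minus strand) occupies bases 124881320 to 124888765 of chromosome 6. The 10 flanking genes span 159.0 kb, from 124785561 to 124944560. *Ptms* (ENSMUSG00000030122, minus strand, 124890021 to 124897066) is nearest, 1255 bases before the start of *Lag3* transcription. *Cd4* (ENSMUSG00000023274, minus strand, 124841655 to 124874758) follows *Lag3* at 6561 bases from its end. Beyond *Ptms* lie *Mlf2* (ENSMUSG00000030120, plus strand, 124908186 to 124916626) and *Cops7a* (ENSMUSG00000030127, minus strand, 124935032 to 124944560). On the *Cd4* side the order is *Gpr162* (ENSMUSG00000038390, minus strand, 124835145 to 124841128), *P3h3* (ENSMUSG00000023191, minus strand, 124818049 to 124834795), *Gnb3* (ENSMUSG00000023439, minus strand, 124811202 to 124817238) and *Usp5* (ENSMUSG00000038429, minus strand, 124791976 to 124806476). *Tpi1* (ENSMUSG00000023456, minus strand, 124787549 to 124791273) and *Spsb2* (ENSMUSG00000038451, plus strand, 124785561 to 124787586) come last, with *Spsb2* 93.733 kb from *Lag3*. In all, 8 of the 10 share the strand of *Lag3*.

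Several of these genes overlap another annotated gene on the opposite strand, so their counts carry some uncertainty. *Tpi1* and *Spsb2* share 38 bases, *Usp5* and *Cdca3* share 1133 bases, and *Ptms* shares 5579 bases with the long non-coding RNA gene A230083G16Rik. The kit of the spinal cord libraries keeps the strand, while for the microglia libraries the use of strand is not given in the sources used here. *Tpi1* also has 7 annotated processed copies elsewhere in the genome, among which the quantification could split reads.

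The primers with which the study read the *Lag3* locus are printed to show which part of it was genotyped and how near that stretch lies to *Ptms*. They bound an amplified product and not the deleted segment, whose extent is not given in the sources used here. Each matched chromosome 6 of GRCm39 at full length. The genotyping pair bounds 2116 bases of the reference that hold the first 3 of the 8 exons of transcript Lag3-201. Its forward primer lies 257 bases outside *Lag3*, between *Lag3* and *Ptms*, with 977 bases left to the end of *Ptms*. The qPCR pair lies in exons 4 and 5, outside the genotyped stretch.
Genotyping forward (chr6:124889023-124889043, minus strand, between *Lag3* and *Ptms*): tgtccaagagatgctgaaagg
Genotyping reverse (chr6:124886928-124886947, plus strand, intron 3 of *Lag3*): ggccatcccttcttctacac
qPCR forward (chr6:124886195-124886217, minus strand, exon 4 of *Lag3*): ctccatcacgtacaacctcaagg
qPCR reverse (chr6:124885498-124885519, plus strand, exon 5 of *Lag3*): ggagtccacttggcaatgagca

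Library totals were 23981406 to 49512632 estimated counts in the knockout microglia experiment, 19430102 to 26994524 in spinal cord and 9403475 to 22850586 in the LAG-3 sort. Levels are given as CPM (counts per 1000000 counts of the library) after scaling of library sizes by TMM (a factor per library that balances most genes). Groups were compared with the quasi-likelihood test of edgeR, and p-values were adjusted by Benjamini-Hochberg over every gene tested in a table. A gene was called at an adjusted p under 0.1 in the knockout microglia, and in spinal cord and the sort only if the absolute log2 fold change was also above 1. Markers of microglia were abundant in every sorted library, with the 8 listed markers summing to 22554 to 43359 CPM in knockout microglia experiments and 16125 to 37526 CPM in the sort. The 10 listed neutrophil markers summed to 1662 to 2516 CPM in P120 LAG-3+/+ libraries but to 0.116 to 1.02 CPM in P120 LAG-3-/- libraries. They summed to 22627 to 65164 CPM in LAG-3-low and 0.141 to 4.86 CPM in LAG-3-high libraries. At P140 they ranged from 0.269 to 3445 CPM in LAG-3+/+ and from 1.03 to 4503 CPM in LAG-3-/- libraries. The part of these markers in the results on the flanking genes was not tested.

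The targeted gene checked the labels. *Lag3* was at 62.9, 61.7 and 53.4 CPM in the 3 P120 LAG-3+/+ libraries and at 0.163, 0.462 and 0.251 CPM in the LAG-3-/- libraries. At P140 it was at 28.1, 24.5 and 25.7 CPM with LAG-3 and at 0.158, 0.0239 and 0.336 CPM without. In spinal cord it was at 74.5, 43.4 and 61.4 CPM in LAG-3+/+ and still at 5.72, 5.603 and 5.504 CPM in LAG-3-/- tissue, from 100, 142 and 110 counts. Its log2 fold change was -7.68 at P120, -7.27 at P140 and -3.41 in spinal cord (edgeR adjusted p = 0.00484, 0.00451 and 4.34e-05). Every knockout library lay below every library with LAG-3.

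The flanking genes differed widely in level. Per kb of exon, P120 LAG-3+/+ microglia had 85.1 ± 6.20 CPM per kb of *Tpi1* and 28.2 ± 1.44 CPM per kb of *Mlf2* (SD, n = 3), each apart from the next gene in order. *Cops7a* (14.97 ± 1.99) and *Usp5* (14.3 ± 1.89) overlapped each other in CPM per kb, as did *Ptms* (10.1 ± 0.758) and *Spsb2* (8.94 ± 3.30). *P3h3* stood at 5.17 ± 1.12 CPM per kb and *Gpr162* at 0.325 ± 0.153 CPM per kb, with no overlap. In LAG-3+/+ spinal cord *Tpi1* (134 ± 15.005 CPM per kb) and *Ptms* (111 ± 9.85 CPM per kb) led with overlapping ranges, ahead of *Mlf2* at 46.0 ± 2.80 CPM per kb. *Gpr162* reached 16.6 ± 1.62 CPM per kb there, overlapping *Cops7a* at 17.1 ± 2.12 CPM per kb. *Spsb2* was at 2.27 ± 0.446 CPM per kb in cord, below *P3h3* at 3.66 ± 0.827. The 2 tables were scaled separately, so levels in cord and microglia are given side by side and were not tested against each other.

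At P120, deletion of *Lag3* came with no called change in the flanking genes. None of the 8 tested passed edgeR's threshold, where 0.0107% of the 18669 genes tested did (2 genes, one of them *Lag3*). None had an unadjusted p under 0.05, against 2.95% of all genes, and DESeq2 called none either, against 0.879%. *Mlf2* was at 172, 157 and 158 CPM in LAG-3+/+ and at 108, 151 and 108 CPM in LAG-3-/- microglia. The groups did not overlap, but the log2 fold change of -0.41 (95% interval -0.98 to 0.16) did not pass the test (edgeR adjusted p = 1.0). *P3h3* was at 25.3, 27.5 and 17.7 CPM with LAG-3 and at 17.3, 4.62 and 3.96 CPM without. These groups also stood apart, by a log2 fold change of -1.45 with a wide interval (-3.15 to 0.26, edgeR adjusted p = 1.0). Such separation in the lower direction, seen in 2 of the 8 flanking genes, was met by 6.63% of all genes tested.

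*Ptms*, the nearest gene, was at 21.9, 21.6 and 24.7 CPM in P120 LAG-3+/+ and at 15.9, 22.3 and 11.96 CPM in LAG-3-/- microglia. The second knockout library lay among the LAG-3+/+ libraries, and the log2 fold change was -0.45 (95% interval -1.27 to 0.38, edgeR adjusted p = 1.0). *Tpi1* was at 243, 248 and 216 CPM with LAG-3 and at 114, 246 and 179.6 CPM without, again overlapping, with a log2 fold change of -0.39 (-1.005 to 0.22). The other 4 had log2 fold changes of -0.41 (*Gpr162*), -0.05 (*Spsb2*), 0.15 (*Usp5*) and 0.23 (*Cops7a*), with overlapping groups. The sign for *Spsb2* turned without the TMM factors (0.06) and with an offset for the length and GC content of transcripts (0.16). The median over the 8 was -0.40 in log2 fold change, beside -0.01 over all genes tested, and 6 of the 8 were below 0. Values above 0, which 2 of the 8 had, were met by 48.7% of all genes.

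**Figure D1:**
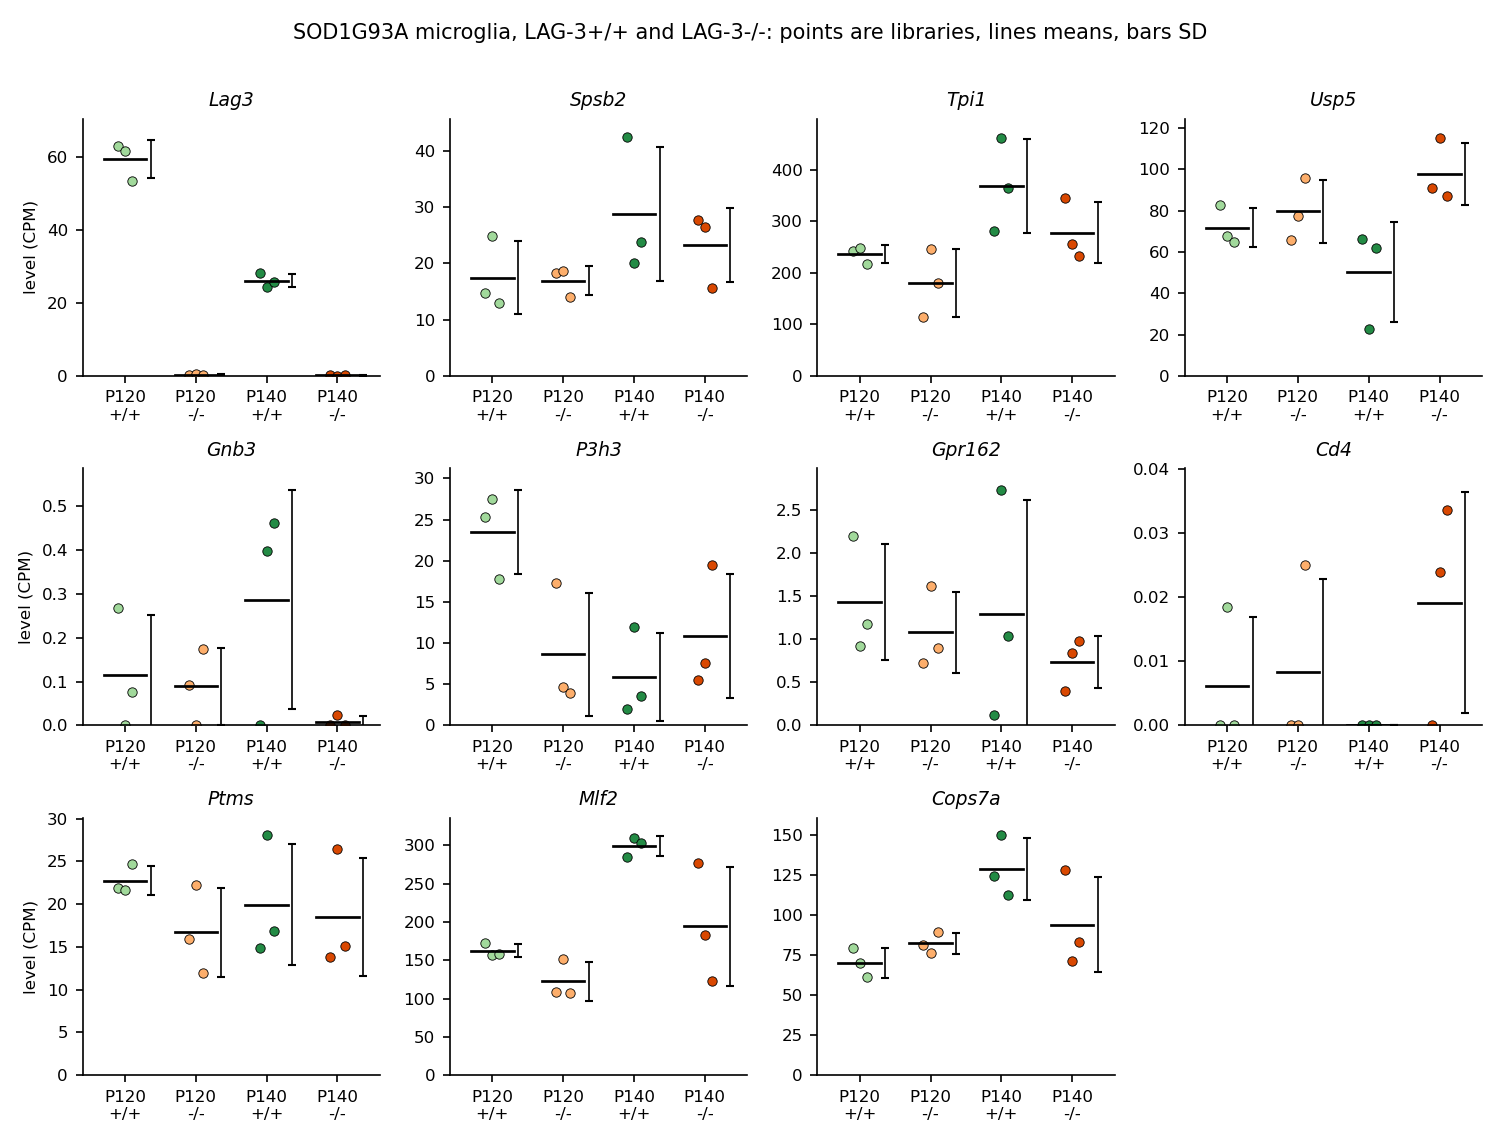
Levels in CPM of *Lag3* and the 10 flanking genes (in order along the chromosome) in microglia of SOD1G93A mice with (+/+) and without (-/-) LAG-3 at P120 and P140. Points are libraries (3 per group), lines are means and bars are SD. *Lag3* falls to 0.0239 to 0.462 CPM in the knockout libraries, while the flanking genes overlap between genotypes in most panels, apart from *Mlf2* at both stages, *P3h3* at P120 and *Usp5* at P140.

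At P140, when 10.2% of all genes tested were called (7.22% higher), again none of the 8 flanking genes passed edgeR's threshold. Of them, 2 had an unadjusted p under 0.05, *Usp5* and *Mlf2*, a share close to that of all genes (24.1%). DESeq2 called both, beside 22.9% of all genes. *Usp5* was at 66.4, 22.5 and 62.1 CPM in LAG-3+/+ and at 91.1, 115 and 87.1 CPM in LAG-3-/- microglia. The second LAG-3+/+ library lay far below the other 2 of its group, and every knockout library lay above the group. The log2 fold change was 0.96 (95% interval 0.20 to 1.72, edgeR adjusted p = 0.127, DESeq2 adjusted p = 0.0830), and 0.42 (edgeR adjusted p = 0.410) with the offset for length and GC content. Without the TMM factors the adjusted p of *Usp5* from edgeR was 0.0757, at a log2 fold change of 1.25, where 12.3% of all genes were called. Without the first LAG-3+/+ library *Usp5* was at 1.21 (edgeR adjusted p = 0.0881). Its range with each library left out was 0.61 to 1.21 (edgeR adjusted p = 0.0881 to 0.354).

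*Mlf2* was at 285, 310.3 and 303 CPM in P140 LAG-3+/+ and at 277, 183 and 123 CPM in LAG-3-/- microglia. The knockout libraries spread widely, all below the LAG-3+/+ libraries, with the first close to them. The log2 fold change was -0.62 (95% interval -1.19 to -0.05, edgeR adjusted p = 0.176, DESeq2 adjusted p = 0.0892). Without that first knockout library it was -0.96 (edgeR adjusted p = 0.0159). The range with each library left out was -0.96 to -0.38 (edgeR adjusted p = 0.0159 to 0.427). Separation without overlap was met by 12.2% of all genes in the higher and 8.92% in the lower direction, against 1 of the 8 flanking genes in each.

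*Cops7a* was at 124, 149.9 and 112 CPM with LAG-3 and at 128, 71.2 and 82.8 CPM without at P140. The first knockout library lay within the LAG-3+/+ range, and the log2 fold change was -0.45 (-0.97 to 0.06, edgeR adjusted p = 0.258). Without that library *Cops7a* was at -0.74 (edgeR adjusted p = 0.0334). Its range with each library left out was -0.74 to -0.33 (edgeR adjusted p = 0.0334 to 0.543). *Tpi1* was at 280.3, 462 and 365 CPM and 344, 255 and 233 CPM in the same order of genotypes, with overlapping groups and a log2 fold change of -0.41 (-1.02 to 0.20). *Ptms*, at 14.9, 28.1 and 16.8 CPM and 13.8, 26.5 and 15.1 CPM, overlapped almost fully, with a log2 fold change of -0.11 (-0.93 to 0.72) that became 0.24 without the TMM factors. *P3h3* had 0.90 (-0.80 to 2.59), which became -0.14 with the offset for length and GC content. *Gpr162* had -0.81 and *Spsb2* -0.31, both with overlapping groups.

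At this stage the scaling mattered for all genes. Their median log2 fold change was 0.14 with TMM factors, 0.47 without them and -0.33 with the offset for length and GC content. Relative to these medians, *Mlf2* was at -0.77, -0.82 and -0.54 and *Usp5* at 0.81, 0.78 and 0.74, so neither turned. The median over the 8 flanking genes was -0.36.

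The difference between the stages in the effect of the knockout was tested as an interaction, and none of the 8 flanking genes was called where 0.171% of all genes were (32 genes). None had an unadjusted p under 0.05 in edgeR, against 13.6% of all genes, and DESeq2 called none, against 7.14%. *P3h3* had the largest interaction of the 8 in this fit, with a log2 difference of 2.34 (95% interval -0.06 to 4.74, unadjusted p = 0.0549, edgeR adjusted p = 0.379), from a lower value in knockouts at P120 and a higher one at P140. With the length and GC offset this interaction of *P3h3* was 1.11 (edgeR adjusted p = 0.693), and with each library left out it was 1.62 to 3.40. *Usp5* followed at 0.80 (edgeR adjusted p = 0.491), or 0.13 (0.918) with the offset and 0.46 (0.571) without P140 LAG-3+/+ replicate 2. *Cops7a* was at -0.68 (-1.41 to 0.04, edgeR adjusted p = 0.3900), which without the first P140 knockout library was at -0.97 (edgeR adjusted p = 0.0690). Its range with each library left out was -0.97 to -0.56 (edgeR adjusted p = 0.0690 to 0.606).

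In spinal cord at P140, most flanking genes lay higher in the knockouts than in LAG-3+/+ tissue, by less than 2-fold, though for *Ptms*, *Cops7a* and *Spsb2* the direction turned with the offset for length and GC content. None of the 8 passed the rule with the fold minimum in edgeR, or in DESeq2, where 7.52% of the 17702 genes tested passed it in edgeR and 6.84% in DESeq2. By adjusted p alone, 6 of 8 were past 0.1 and all 6 were higher, as were 23.1% of all genes (47.1% in both directions). The spread among these libraries was small, with a common dispersion of 0.0247 against 0.603 in the knockout microglia. All 6 had an unadjusted p under 0.05, as had 47.7% of all genes. All 8 had a log2 fold change above 0 (7 without the TMM factors and 5 with the offset), as had 50.1%.

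*Tpi1* was at 324, 404 and 383 CPM in LAG-3+/+ and at 582, 603 and 527 CPM in LAG-3-/- cord. Every knockout library was above every LAG-3+/+ library, by a log2 fold change of 0.62 (95% interval 0.34 to 0.91, edgeR adjusted p = 0.00333). *Mlf2* was at 247, 276 and 273 CPM and at 406, 395 and 371 CPM, also without overlap, with a log2 fold change of 0.56 (0.31 to 0.81, edgeR adjusted p = 0.00305). In P140 microglia the sign for *Mlf2* was the opposite (-0.62), a difference between tissues that was not tested, since they are in separate tables.

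*Ptms* was at 274, 232 and 241 CPM with LAG-3 and at 395, 342 and 313 CPM without. Its groups stood apart, by 0.49 (0.21 to 0.77, edgeR adjusted p = 0.0114). *Gpr162* was at 67.2, 81.2 and 71.5 CPM and at 90.8, 99.4 and 116 CPM, again apart, by 0.48 (0.21 to 0.74, edgeR adjusted p = 0.009204). *Cops7a* was at 69.5, 89.3 and 81.1 CPM and at 97.2, 103 and 99.6 CPM, with a log2 fold change of 0.32 (0.08 to 0.57, edgeR adjusted p = 0.04003). The low level of *Spsb2*, 5.31, 3.57 and 4.45 CPM against 6.81, 5.52 and 6.45 CPM, gave 0.49 (0.06 to 0.92, edgeR adjusted p = 0.0689) and, in DESeq2, an adjusted p of 0.120. *Cops7a* stayed past 0.1 in 3 of the 6 fits that left out a library, with an adjusted p of 0.111 to 0.119 in those without LAG-3+/+ replicate 1 or 3 or LAG-3-/- replicate 2. *Spsb2* did so in 2 of 6, with 0.156 to 0.228 in those without LAG-3+/+ replicate 2 or 3 or LAG-3-/- replicate 1 or 3. These 6 genes had no overlap between groups, as had 25.5% of all genes in the higher direction.

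*Usp5* and *P3h3* overlapped between the genotypes in cord. *Usp5* was at 155, 195 and 178 CPM with LAG-3 and at 180.4, 181 and 203 CPM without, a log2 fold change of 0.09 (-0.17 to 0.36, edgeR adjusted p = 0.573) that became -0.03 without the TMM factors. *P3h3* had 0.25 (-0.11 to 0.61, edgeR adjusted p = 0.253), and 0.45 (0.0416) without the first LAG-3+/+ library. Its range with each library left out was 0.15 to 0.45 (edgeR adjusted p = 0.0416 to 0.572).

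Most of these calls in cord were lost with the offset for length and GC content. With it, 1 of the 8 stayed past an adjusted p of 0.1, *Gpr162* at 0.32 (edgeR adjusted p = 0.0443), where 27.5% of all genes were past it. *Tpi1* was at 0.21 (0.302) and *Mlf2* at 0.07 (0.691), while *Ptms* (-0.14), *Cops7a* (-0.02) and *Spsb2* (-0.09) turned negative. Markers of cell types also differed in level between the genotypes in cord. The 6 listed oligodendrocyte markers summed to 15408 to 16741 CPM in LAG-3+/+ and 21833 to 30043 CPM in LAG-3-/- cord, and the 8 microglia markers to 1141 to 1436 and 816 to 1109 CPM. The 6 astrocyte markers summed to 12945 to 14787 CPM and 7582 to 12100 CPM, and the 8 neuron markers to 3075 to 4293 CPM and 3988 to 4532 CPM. Their part in the values of the flanking genes was not tested. In such tissue, fewer cells of a type and less RNA per cell cannot be told apart.

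**Figure D2:**
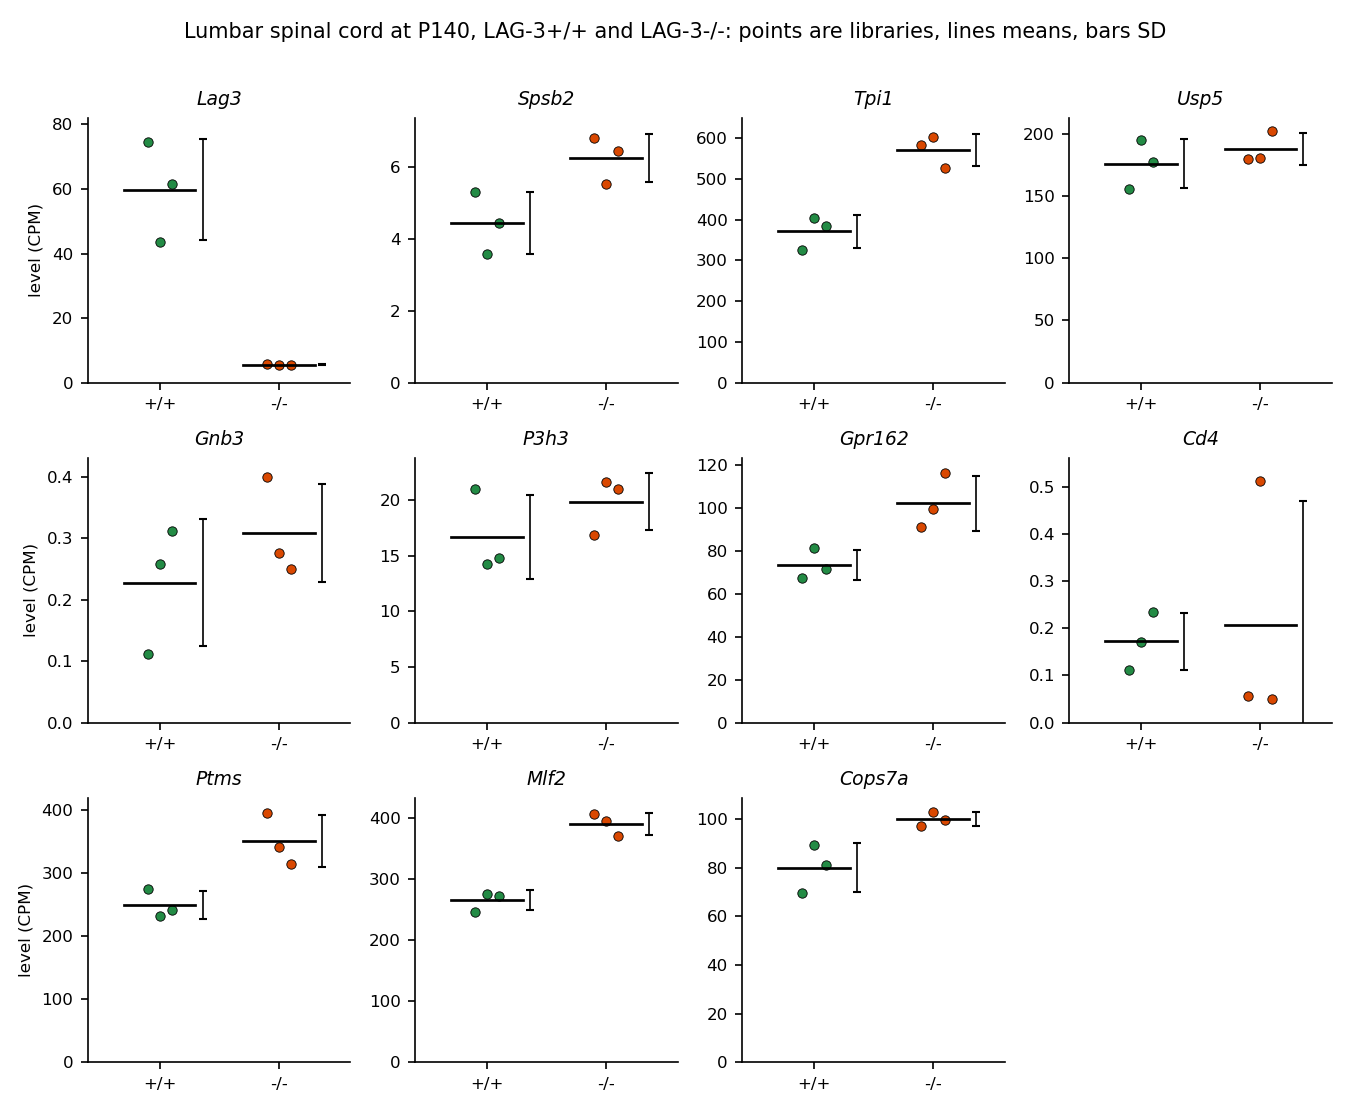
Levels in CPM of *Lag3* and the 10 flanking genes in lumbar spinal cord of SOD1G93A mice at P140 with (+/+) and without (-/-) LAG-3. Points are libraries (3 per group), lines are means and bars are SD. *Lag3* falls from between 43.4 and 74.5 CPM to between 5.5 and 5.72 CPM, and the knockout libraries lie above the others for *Tpi1*, *Mlf2*, *Ptms*, *Gpr162*, *Cops7a* and *Spsb2*, of which *Ptms*, *Cops7a* and *Spsb2* turn negative with an offset for length and GC content.

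**Figure D3:**
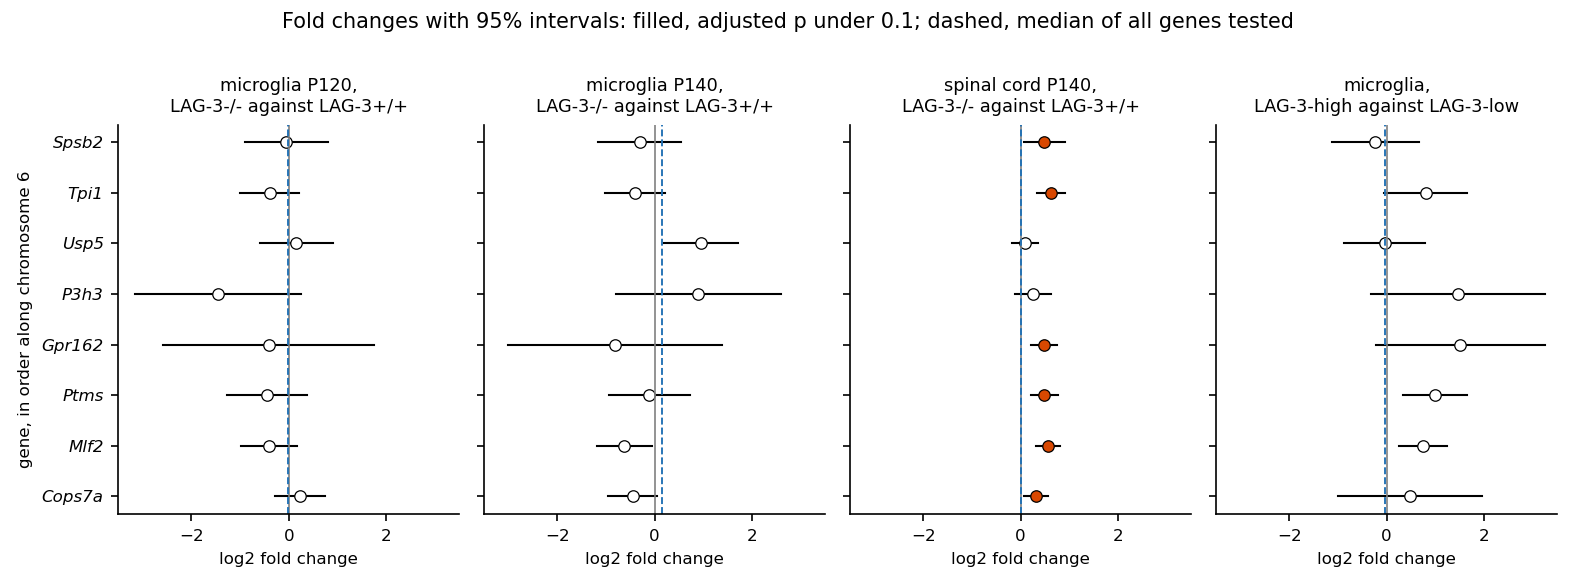
Log2 fold changes (points) with 95% intervals (lines) of the 8 flanking genes tested, in the 3 knockout comparisons and for the LAG-3-high fraction against the LAG-3-low fraction. Filled points have an edgeR adjusted p under 0.1, which holds for 6 genes in spinal cord and for no point in microglia, and dashed lines mark the median of all genes tested. Under the offset for length and GC content 1 of the cord points stays past 0.1, and *Ptms*, *Cops7a* and *Spsb2* in cord change sign. *Spsb2* at P120, *P3h3* at P140 and *Spsb2* between the sorted fractions also change sign under it, as do *Spsb2* at P120, *Ptms* at P140 and *Usp5* in cord without TMM factors.

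Between sorted fractions of SOD1G93A microglia, in which the locus is intact, 5 of the 8 flanking genes were higher in every LAG-3-high library than in any LAG-3-low library, where 8.95% of all 16508 genes tested were. None was called in edgeR with the fold minimum, against 3.49% of all genes, and none was past an adjusted p of 0.1 alone, against 4.39%. Of the 8, 2 had an unadjusted p under 0.05, *Ptms* and *Mlf2*, against 12% of all genes, and DESeq2 called 1, *Gpr162*, against 5.58%. *Lag3* itself was at 42.9, 34.8, 38.7, 43.02 and 57.8 CPM in LAG-3-low and 167, 163, 176, 146 and 195 CPM in LAG-3-high microglia, which were sorted on the LAG-3 protein at their surface.

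*Ptms* was at 16.3, 16.7, 14.9, 12.5 and 15.8 CPM in LAG-3-low and at 21.7, 33.6, 35.03, 33.3 and 27.98 CPM in LAG-3-high microglia. The lowest LAG-3-high library was above the highest LAG-3-low library, and the log2 fold change was 0.99 (95% interval 0.33 to 1.65, unadjusted p = 0.00581, edgeR adjusted p = 0.1203). *Mlf2* was at 159.6, 167, 141, 122 and 151 CPM and at 261, 212, 244, 229 and 293 CPM, also apart, by 0.74 (0.25 to 1.24, unadjusted p = 0.00586, edgeR adjusted p = 0.121). *Tpi1* was at 160.4, 216, 215, 201 and 169 CPM and at 373, 360.0, 300.4, 333 and 308 CPM, a difference of 0.80 (-0.04 to 1.64, edgeR adjusted p = 0.459).

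*Gpr162* was sparse, at 2.76, 0.758, 1.19, 0.484 and 1.44 CPM in LAG-3-low and 3.04, 4.67, 4.002, 3.55 and 3.74 CPM in LAG-3-high libraries, from 143 and 292 counts in all. The fractions stood apart, by a log2 fold change of 1.51 (-0.22 to 3.25, edgeR adjusted p = 0.523, DESeq2 adjusted p = 0.0919). *Cops7a* was at 55.9, 74.03, 69.1, 51.9 and 78.7 CPM and 86.4, 98.7, 89.5, 98.99 and 85.9 CPM, again apart, by 0.48 (-1.01 to 1.96, edgeR adjusted p = 0.9298). *P3h3* was at 7.63, 4.96, 3.52, 1.02 and 4.58 CPM and 3.89, 13.1, 23.4, 10.4 and 9.16 CPM, with overlapping fractions and a log2 fold change of 1.47 (-0.32 to 3.25, edgeR adjusted p = 0.562). *Usp5*, at 89.9, 124, 95.03, 122 and 105 CPM and 80.8, 115, 113, 91.97 and 119 CPM, had -0.04 (-0.88 to 0.80). *Spsb2*, at 19.9, 31.7, 25.6, 36.6 and 22.3 CPM and 19.7, 30.7, 25.1, 18.7 and 21.6 CPM, had -0.23 (-1.12 to 0.66), which became 0.04 with the offset for length and GC content.

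These calls changed with the libraries in the fit and with the processing, and the cause was not tested. The 4 WT libraries spread widely, and the common dispersion of the whole table was 0.691. In a fit of only these 10 SOD1G93A libraries, 5 of the 8 were past an adjusted p of 0.1, all higher in LAG-3-high microglia, where 23.7% of all genes were past it in either direction. They were *Tpi1* at 0.73 (edgeR adjusted p = 0.000381), *Mlf2* at 0.67 (0.00147), *Ptms* at 0.92 (0.00543), *Cops7a* at 0.41 (0.0465) and *Gpr162* at 1.42 (0.0852), of which *Gpr162* also met the fold minimum. With the offset for length and GC content, in all 14 libraries, *Mlf2* at 0.83 (edgeR adjusted p = 0.0378) and *Ptms* at 1.298 (0.0475) were past it, beside 5.74% of all genes, and *Ptms* met the fold minimum. Without the TMM factors the medians of all genes and of the flanking genes moved together, the former from -0.02 to -0.40 in log2 fold change, and none of the 8 was past it. The neutrophil markers, near 0 in LAG-3-high libraries, moved with this comparison, and their part in it was not tested.

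**Figure D4:**
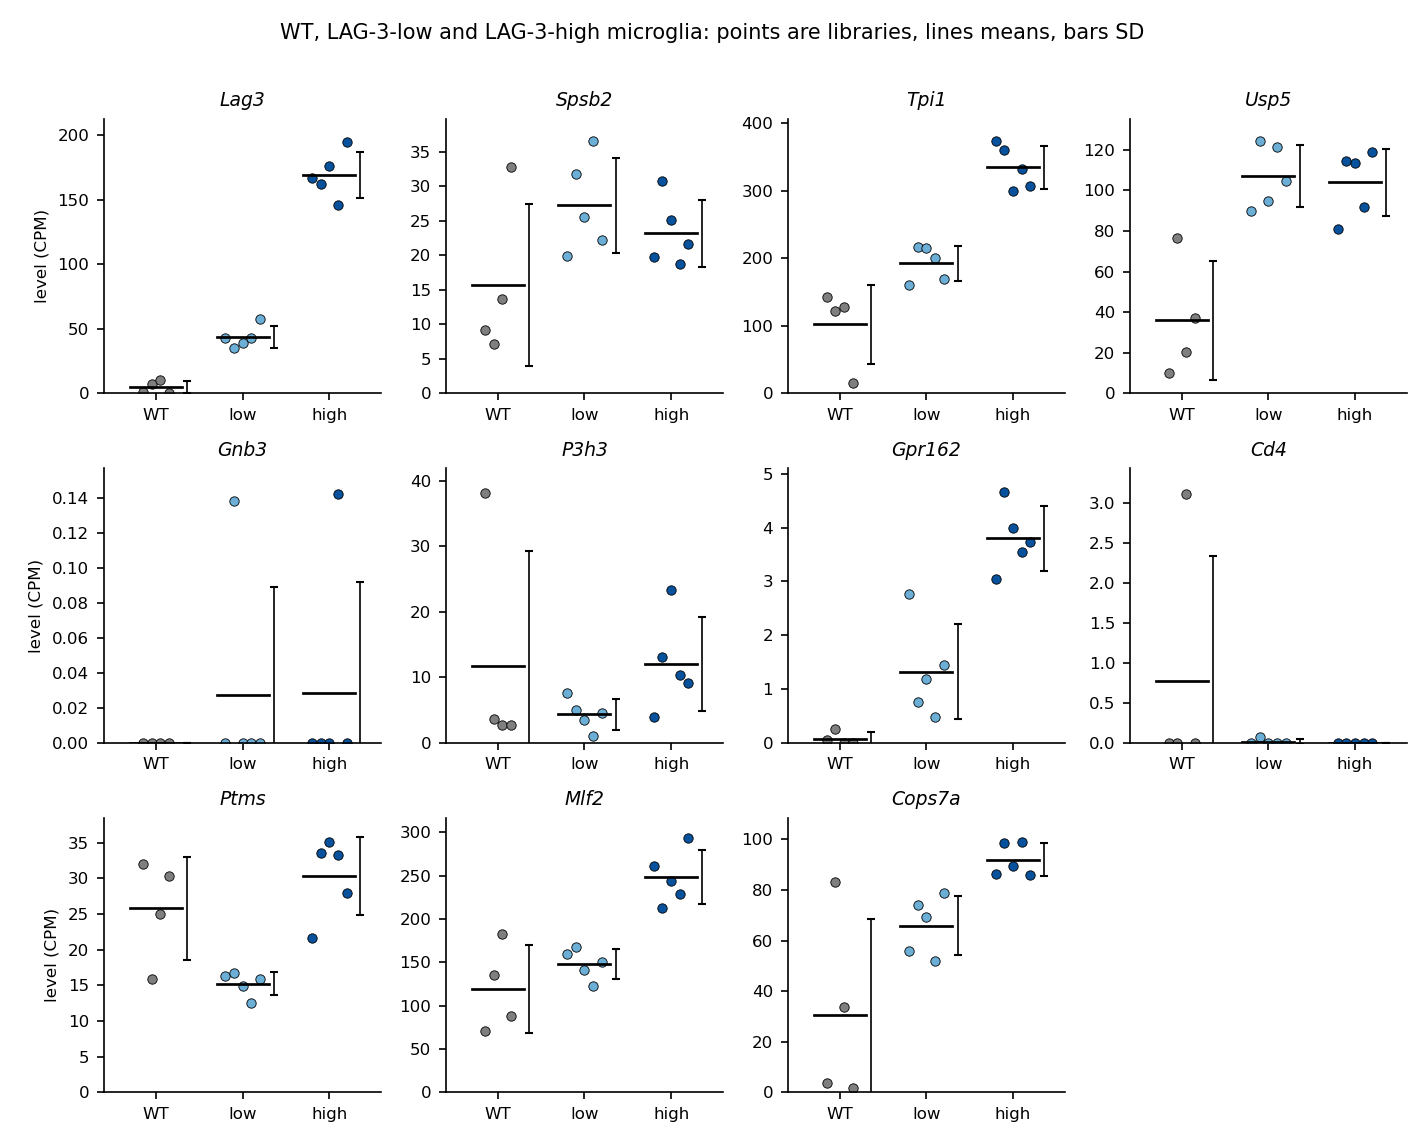
Levels in CPM of *Lag3* and the 10 flanking genes in WT microglia (4 libraries) and in the LAG-3-low and the LAG-3-high fraction of SOD1G93A microglia (5 libraries each). Points are libraries, lines are means and bars are SD. All LAG-3-high libraries lie above the LAG-3-low libraries for *Tpi1*, *Gpr162*, *Ptms*, *Mlf2* and *Cops7a*, while single WT libraries stand apart for *Tpi1* (14.97 CPM), *P3h3* (38.1 CPM) and *Cd4* (3.11 CPM).

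Reference sequence before the RefSeq starts of 3 of the genes that stood apart in both the sorted fractions and the cord, *Ptms*, *Mlf2* and *Tpi1*, is shown. RefSeq's table of sequence around gene starts (GRCm38.p6) held 6 of the 10 flanking genes, these 3 with *Cops7a*, *Spsb2* and *P3h3*. The 250 bases before each RefSeq start are printed from 5′ to 3′ along the gene's strand, with the letters CG, which read the same on both strands, in capitals. RefSeq starts were not matched to the GRCm39 positions given above. A window may thus lie inside a gene span given there and hold transcribed sequence. *Ptms* had 21 such pairs, *Mlf2* 25 and *Tpi1* 13, beside 29 for *Cops7a*, 17 for *Spsb2* and 5 for *P3h3*. The median over 32851 such windows was 6, and 92.1% of windows held at least 1. The share of windows with at least as many pairs was 16.3% for *Ptms*, 10.7% for *Mlf2*, 31.5% for *Tpi1*, 6.78% for *Cops7a*, 23.5% for *Spsb2* and 55.6% for *P3h3*.
*Ptms* (chr6:124917947-124918196, minus strand): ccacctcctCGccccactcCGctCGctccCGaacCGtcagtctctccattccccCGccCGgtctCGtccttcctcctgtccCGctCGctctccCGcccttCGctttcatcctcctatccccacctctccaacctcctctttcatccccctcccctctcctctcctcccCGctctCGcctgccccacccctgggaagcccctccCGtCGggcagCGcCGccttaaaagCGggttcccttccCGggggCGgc
*Mlf2* (chr6:124931138-124931387, plus strand): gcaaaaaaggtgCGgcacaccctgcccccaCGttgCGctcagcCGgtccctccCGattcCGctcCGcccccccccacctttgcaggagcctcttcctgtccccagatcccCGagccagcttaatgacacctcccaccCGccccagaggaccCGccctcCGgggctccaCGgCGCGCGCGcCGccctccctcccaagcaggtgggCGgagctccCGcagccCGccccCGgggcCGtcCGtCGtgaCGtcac
*Tpi1* (chr6:124814159-124814408, minus strand): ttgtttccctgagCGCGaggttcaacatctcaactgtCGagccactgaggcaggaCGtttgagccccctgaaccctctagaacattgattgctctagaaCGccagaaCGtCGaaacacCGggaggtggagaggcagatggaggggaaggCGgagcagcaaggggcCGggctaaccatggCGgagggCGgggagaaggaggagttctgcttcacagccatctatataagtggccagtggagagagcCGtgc

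Against WT microglia, both sorted fractions were compared with the same 4 WT libraries, so the counts that follow are not independent. In LAG-3-low microglia 2 of the 8 flanking genes were called, both higher, against 21.9% of all genes (10.9% higher). With the length and GC offset 4 of the 8 were past an adjusted p of 0.1 there, only 1 of them higher. Of the 16508 genes tested, 7125 were past it in that fit. In LAG-3-high microglia 4 of the 8 were called, all higher, against 27.0% of all genes (12.1% higher). The genotype, the disease and the sort all differ here and cannot be told apart. The 10 neutrophil markers summed to 5955 to 70492 CPM in WT libraries, beside 22627 to 65164 CPM in LAG-3-low and 0.141 to 4.86 CPM in LAG-3-high libraries, and their part in these values was not tested.

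*Gpr162* was almost absent from WT microglia, with 1, 3, 0 and 0 counts in the 4 libraries. The pooled counts were 61.1 times as high in CPM in LAG-3-high microglia (95% interval of the counting error 23.6 to 226) and 22.2 times in LAG-3-low microglia (8.47 to 82.4). These intervals leave out the spread between libraries. In edgeR, which includes that spread, *Gpr162* passed the test in both (edgeR adjusted p = 0.003198 and 0.0169). *Tpi1* was at 143, 121, 128 and 14.97 CPM in WT libraries, the last far below the rest. It was called in LAG-3-high microglia at a log2 fold change of 1.72 (0.78 to 2.65, edgeR adjusted p = 0.0137), and in LAG-3-low microglia it had 0.92 (edgeR adjusted p = 0.154).

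*Usp5* was at 9.89, 76.5, 20.4 and 36.9 CPM in WT microglia, below every library of both sorted fractions. Its log2 fold changes were 1.58 in LAG-3-low and 1.54 in LAG-3-high microglia (edgeR adjusted p = 0.0253 and 0.02298), but 0.04 and 0.03 with the offset for length and GC content. *Mlf2* was at 70.6, 136, 183 and 87.7 CPM, and was called in LAG-3-high microglia at 1.06 (0.52 to 1.59, edgeR adjusted p = 0.00896), which turned to -0.03 with that offset. Without WT replicate 1 or 4 or LAG-3-high replicate 5, *Mlf2* was at 0.89 to 0.99, under the fold minimum. The offset moved the median of all genes from 0.04 to -0.84 in the LAG-3-low and from -0.08 to -0.76 in the LAG-3-high comparison. Relative to these medians *Usp5* was at 0.87 and 0.79, and *Mlf2* at -0.02 and 0.73.

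*Ptms* was at 32.02, 15.9, 24.96 and 30.3 CPM in WT microglia and overlapped both fractions, with log2 fold changes of -0.76 in LAG-3-low and 0.23 in LAG-3-high microglia. The latter turned to -0.02 without the TMM factors and -0.26 with the length and GC offset. In LAG-3-low microglia *Ptms* was at -1.56 with that offset (edgeR adjusted p = 0.00468), or -0.72 relative to the median of all genes. *Cops7a*, at 3.72, 83.04, 33.9 and 1.59 CPM, varied widely in WT libraries. Without the second WT library its log2 fold change in LAG-3-high microglia went from 1.59 (edgeR adjusted p = 0.153) to 2.82 (0.0141), and in LAG-3-low microglia from 1.11 (0.337) to 2.33 (0.0314). The ranges of *Cops7a* with each library left out were 1.20 to 2.82 in LAG-3-high and 0.72 to 2.33 in LAG-3-low microglia. *P3h3* was at 38.1, 3.57, 2.65 and 2.66 CPM, with the first library far above the rest, and *Spsb2* at 9.23, 7.15, 13.6 and 32.8 CPM. In the main edgeR fit with all libraries neither passed the test in either comparison. With the length and GC offset *P3h3* was at -3.48 in LAG-3-low microglia (edgeR adjusted p = 0.0151), or -2.64 relative to the median of all genes. Without that first library *P3h3* was at 2.01 in LAG-3-high microglia (edgeR adjusted p = 0.0748), and without WT replicate 4, *Spsb2* was at 1.22 (0.0256) in LAG-3-high and 1.45 (0.0156) in LAG-3-low microglia. The ranges of *Spsb2* with each library left out were 0.34 to 1.22 and 0.57 to 1.45 in these comparisons. That of *P3h3* was -0.36 to 2.01 in LAG-3-high microglia.

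*Cd4*, the gene on the far side of *Lag3* from *Ptms*, had too few counts to test. It had 0 or 1 counts in all 12 libraries of the knockout microglia and in each of the 10 libraries of the sorted fractions. A count of 0 in a library allows up to 3 counts, a limit for counting error alone. Of the WT libraries 3 had 0 counts and the third had 55 (3.11 CPM). The 10 listed T and NK cell markers were all at 0 in that library, and the 8 markers of border macrophages and monocytes summed to 633 CPM there, against 47.1 to 142 CPM in the other WT libraries. In LAG-3-low libraries, with 0 or 1 counts of *Cd4*, the same 8 markers summed to 259.6 to 661 CPM. In spinal cord *Cd4* had 3, 4 and 6 counts with LAG-3 and 1, 13 and 1 counts without. *Gnb3* had 13, 0 and 3 counts in P120 LAG-3+/+ and 4, 0 and 7 counts in LAG-3-/- microglia. At P140 it had 0, 7 and 12 and 0, 1 and 0 counts, in cord 3, 6 and 8 and 7, 7 and 5 counts, and in the sort 0 to 2 counts per library. No difference in either gene was detectable at this depth.

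Besides the 10 flanking genes, the annotation holds 128 other genes within 1 Mb of *Lag3*. Some of them lie among the flanking genes, such as A230083G16Rik at 2.722 kb from *Lag3*. Of the 128, 56 were tested in knockout microglia, 36 in cord and 52 in the sort. At P120 none of the 56 was called in edgeR, 2 had an unadjusted p under 0.05, and DESeq2 called none. At P140 2 of 56 were called (3.57%, against 10.2% of all genes), named here after their values were seen. They were *Pianp*, at a log2 fold change of 2.41 and 84.857 kb from *Lag3* (edgeR adjusted p = 0.0397), and *Ltbr*, at 0.94 and 394.768 kb (0.0948). *Pianp* lies nearer to *Lag3* than the flanking genes *Tpi1* (90.046 kb) and *Spsb2* (93.733 kb). The absence of calls at P140 thus holds for the listed flanking genes and not for every gene at such distances. In cord 1 of 36 was called, *Scnn1a* at -1.01 (2.78%, against 7.52% of all genes). By adjusted p alone 15 of the 36 were past 0.1 there, 8 higher and 7 lower (41.7%, against 47.1%). No other gene within 1 Mb was called in more than 1 of the 3 knockout comparisons. Between the sorted fractions 2 of 52 were called (3.85%, against 3.49%), *Pianp* at 2.01 (edgeR adjusted p = 0.00612) and *Cd9* at 1.12 (0.0140), both higher where LAG-3 was high.

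**Figure D5:**
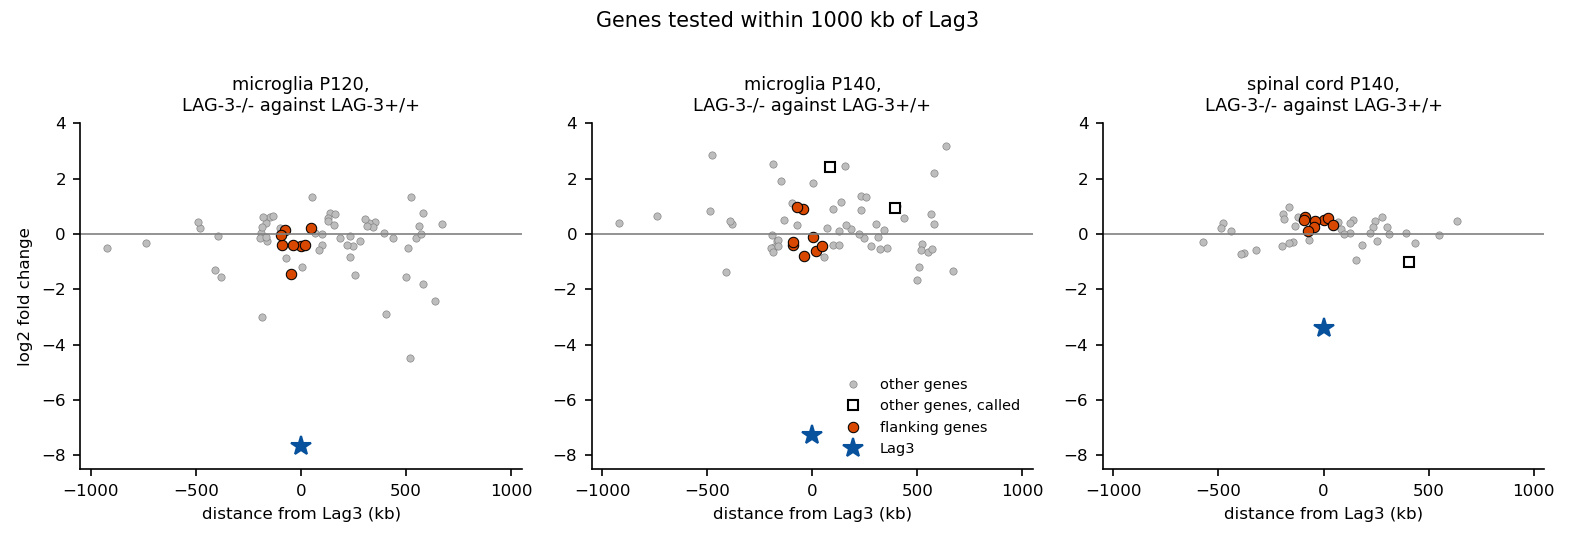
Log2 fold change of knockout against LAG-3+/+ samples for each gene tested within 1 Mb of *Lag3*, by distance from *Lag3* in kb (negative on the *Cd4* side), in microglia at P120 and P140 and in spinal cord. The star is *Lag3* (-7.68, -7.27 and -3.41), filled orange circles are the 8 flanking genes, grey circles other genes and open squares other genes that were called. In P120 and P140 microglia the flanking genes lie on both sides of 0, and in cord all 8 lie above 0 (5 of 8 with the offset for length and GC content).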

How the data were processed

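The authors trimmed reads with Trim Galore 0.6.7, quantified transcripts with Salmon 1.9.0 against GRCm39 and summed them per Ensembl gene with tximport in R 4.2.1, and they deposited the resulting estimated counts, which are neither whole nor normalized. The annotation release is not given in the sources used here. For microglia, full-length cDNA was amplified from little RNA (SMART-seq mRNA HT LP kit), while cord libraries came from the NEBNext Ultra II Directional kit. Amplification can make small inputs vary beyond counting error.

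Counts were rounded to whole numbers. The 3 tables were analysed separately in R 4.3.3. Genes were kept by filterByExpr of edgeR 4.0.16, at a count of 10 and a total of 15. TMM factors scaled the libraries, and the robust quasi-likelihood test was used. Benjamini-Hochberg adjustment covered every gene tested. All libraries of a table shared one model. In place of the DESeq2 of the study's methods, edgeR was the main test, and DESeq2 1.42.0 was an alternative. Libraries were grouped by their labels, and none was left out. The labels do not say whether libraries of a group came from separate animals, so p-values measure the spread between these libraries. The threshold was an adjusted p of 0.1, joined in cord and sort by a log2 fold change beyond 1 in size, as in the study's methods, and no fold minimum for the stage model, for which they give none. The 10 genes, the window of 1 Mb and the marker lists were chosen with earlier results of these data known. Named genes are the 10 flanking genes and *Lag3*, and other genes within 1 Mb if called in at least 2 of 3 knockout comparisons, which held for none. *Pianp*, *Ltbr*, *Scnn1a* and *Cd9* were named outside this rule, after their values were seen. Alternatives were RLE size factors, no TMM factors, other filters and thresholds, the listed sex, the replicate number as a block, fits of the compared groups alone, windows of 0.5 and 5 Mb, each library left out, and a loess offset per library for transcript length and GC content (span 0.3). Positions and exon lengths are those of GENCODE vM39. The fits were tested on simulated data. Columns of fold changes by the authors were not used here.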

Additional observations from a re-analysis of the deposited data

Results flagged for a closer look

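Among 27 groups of at least 4 libraries in which a gene was examined for 1 library far from the rest (Dixon's test), 3 stood out. Independent groups would give about 1 in 20, or 1.35. These groups share libraries and are not independent, so the count of 3 was not weighed against chance. All 3 were in WT microglia. *Cd4* was at 3.11 CPM in WT replicate 3 and at 0 in the other 3, a case in which any value above 0 is flagged. *P3h3* was at 38.1 CPM in WT replicate 1, with the others at 2.65 to 3.57 CPM. *Tpi1* was at 14.97 CPM in WT replicate 4, with the others at 121 to 143 CPM. In that library the listed neutrophil markers summed to 70492 CPM, with 5955 to 36473 CPM in the other WT libraries, and their part in the level of *Tpi1* was not tested. For no flanking gene did the effect of the knockout differ between P120 and P140 past the threshold of the interaction test.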

How the results depend on the processing

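At P120 the count of flanking genes called stayed at 0 under every alternative, as did that of the other genes within 1 Mb. At P140 it went from 0 to 1 without TMM factors and to 2 with DESeq2, and was 0 to 2 with each library left out (1 without the first LAG-3+/+ and 2 without the first LAG-3-/- library). The other genes within 1 Mb called at P140 went from 2 to 1 with RLE size factors, with no filter, with sex, with the replicate block and with the length and GC offset, to 0 in the fit of the 2 groups, to 6 without TMM factors and within 5 Mb and to 7 with DESeq2, and were 0 to 11 with each library left out (0 without LAG-3-/- replicate 2 or 3 and 11 without replicate 1). In the P140 fit of the 2 groups no gene of the whole table was past the threshold, *Lag3* included, so its counts hold no information on this locus. For the interaction the count was 0 to 1 for flanking genes with each library left out (1 without the first P140 LAG-3-/- library) and 3 for other genes with DESeq2, or 0 to 3 with each library left out. In cord 6 flanking genes were past the adjusted p without a fold minimum, a count that was 5 with DESeq2 and with no filter, 4 without TMM factors, 1 with the length and GC offset and 4 to 6 with each library left out. The other genes called in cord went from 1 to 2 without TMM factors, with the replicate block and with the offset, to 3 with no filter and to 11 within 5 Mb, and were 0 to 4 with each library left out (0 without LAG-3+/+ replicate 1 and 4 without LAG-3-/- replicate 3). Between the sorted fractions the flanking genes called went from 0 to 1 with the offset, in the fit of the 2 groups and with DESeq2. Other genes called there went from 2 to 3 with the offset, to 1 without TMM factors and within 0.5 Mb, to 4 with DESeq2, to 9 in the fit of the 2 groups and to 12 within 5 Mb. Against WT, flanking genes called went from 2 to 1 in the fit of the 2 groups in LAG-3-low and from 4 to 2 with the offset in LAG-3-high microglia. With the offset *Ptms* (-1.56) and *P3h3* (-3.48) were called lower in LAG-3-low microglia. There *Gpr162* (2.90) stayed called and *Usp5* (0.036) did not. Other genes called went from 11 to 21 with the offset, 19 with DESeq2, 7 within 0.5 Mb and 32 within 5 Mb in LAG-3-low microglia. In LAG-3-high microglia they went from 17 to 10 with no filter and within 0.5 Mb, 11 in the fit of the 2 groups and 53 within 5 Mb. The causes of these changes were not tested.

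Signs turned, all for values not past the threshold in the main fit except *Mlf2* in LAG-3-high against WT microglia and 3 genes in cord (by adjusted p alone). With the length and GC offset *Spsb2* was at 0.16 and *P3h3* at -0.14 in knockouts at P120 and P140, *Ptms* at -0.14, *Cops7a* at -0.017 and *Spsb2* at -0.085 in cord, and *Spsb2* at 0.042 between the sorted fractions. With it *Mlf2* (-0.86) and *Spsb2* (-0.34) turned in LAG-3-low against WT microglia. This turned value of *Mlf2* was past 0.1 by adjusted p alone (edgeR adjusted p = 0.00815), under the fold minimum. *Ptms* (-0.26), *Mlf2* (-0.028), *P3h3* (-2.01) and *Spsb2* (-0.29) turned with the offset in LAG-3-high microglia, and *Ptms* (-0.30) and *Lag3* (-0.16) for the interaction. Without TMM factors *Spsb2* was at 0.056 at P120, *Ptms* at 0.24 at P140, *Usp5* at -0.030 in cord, *Tpi1* at 0.20 for the interaction, and *Ptms* at -0.023 and *P3h3* at -0.25 in LAG-3-high against WT microglia. The fit of those 2 groups gave *P3h3* -0.017. The interaction of *Tpi1* was 0.011 with no filter and 0.0091 with sex.

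With each library left out, ranges that crossed 0 at P120 were -0.82 to 0.034 (*Gpr162*), -0.23 to 0.29 (*Spsb2*) and -0.0055 to 0.27 (*Usp5*), and at P140 -1.35 to 0.34 (*Gpr162*), -0.50 to 0.22 (*Ptms*) and -0.51 to 0.088 (*Spsb2*). For the interaction they were -0.93 to 0.75 (*Gpr162*), -0.55 to 0.034 (*Mlf2*), -0.071 to 0.67 (*Ptms*), -0.60 to 0.14 (*Spsb2*), -0.25 to 0.28 (*Tpi1*) and -0.60 to 0.93 (*Lag3*). In the sort *Usp5* ranged from -0.10 to 0.037 between the fractions, and *P3h3* from -1.76 to 0.60 in LAG-3-low (above 0 without the first WT library) and from -0.36 to 2.01 in LAG-3-high against WT microglia.

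The replicate numbers did not pair the libraries, since deviations of same-numbered libraries correlated at -0.12 to 0.07. With the replicate block no flanking gene's call changed, the interaction was 0.18 for *Gpr162* and 0.055 for *Tpi1*, and *Lag3* between the sorted fractions went from an edgeR adjusted p of 0.0837 to 0.173. Over all 19 alternatives *Lag3* lost its call between the sorted fractions in 14 and kept it in 5. *Cd4* and *Gnb3* are limited by their depth of 0 to 55 counts per library.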
